A study of Homo sapiens with 6 samples.

Results

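The genes described here are 58 genes of the G2/M transition and the mitotic spindle, chosen by name and matched to gene symbols in a table of 27381 genes. All 58 were listed, and 57 of them had an FPKM (sequenced fragments per transcript length and library size) of at least 1 in at least 1 column, the minimum for a comparison, which 12822 genes of the table met. The exception was KIFC1. RNA sequencing was performed on DU145, an established human prostate carcinoma cell line, in 6 libraries, 2 per condition: Scr, in which the cells carried Cas9 with a scrambled sgRNA, CD24 KO and RCC2 KO. All cells were sorted for a fluorescent protein delivered with Cas9 and grown as clones, and no drug treatment is given in the labels. The knockouts were clones, 2 per targeted gene, and the series' own description speaks of cells sorted by their level of knockout, so each condition rests on few clones. CD24 is a heavily glycosylated protein anchored at the cell surface. RCC2 is a regulator of chromosome condensation that binds centromeric chromatin and takes part in chromosome alignment and cytokinesis.

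Cells that have replicated their DNA enter mitosis when cyclin A and cyclin B activate CDK1, and the spindle then attaches chromosomes through their kinetochores. The spindle assembly checkpoint holds the anaphase-promoting complex inactive until every kinetochore is attached, after which sister chromatids part and the cell divides. Many genes that encode these proteins are transcribed in G2 and M under the transcription factors FOXM1 and B-MYB, which act with the MuvB complex, and are repressed in resting cells when the same complex forms part of DREAM. The cell cycle homology region, or CHR, is the promoter element through which MuvB binds, and a CCAAT box, bound by NF-Y, often lies near it. In bulk RNA, fewer cells in G2 or M and less RNA of these genes per cell cannot be told apart.

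The deposited table held 1 FPKM value per gene and condition, so no spread between libraries, no test and no p-value can be given for any difference below. Differences are log2(FPKM + 1) values of one column minus another, and "2-fold" means a difference of at least 1 on that scale, which understates the fold of low genes. The depth of the libraries is unknown. The targeted RNAs did not follow the labels in either knockout column. In the order Scr, labelled CD24 KO and labelled RCC2 KO, which is kept for all values below that are given for all 3 columns, CD24 RNA was at 93.2, 309 and 214 FPKM and RCC2 RNA at 37.8, 14.2 and 41.8 FPKM. Both knockouts are therefore named by label only, and no direction is drawn from the genotype. The column names are codes that do not state a condition. Each column takes the label of the samples whose description codes match its name. All 6 epithelial markers were present in every column, and against Scr 3 were lower and 3 higher in the column labelled CD24 KO. The lower ones were KRT8 (336, 149 and 348 FPKM), KRT18 (293, 141 and 305 FPKM) and EPCAM (58.9, 44.9 and 58.6 FPKM), and the higher ones were KRT19 (83.5, 113 and 107 FPKM), CDH1 (27.9, 52.6 and 23.7 FPKM) and CLDN4 (28.2, 34.0 and 24.8 FPKM). The androgen receptor and its targets KLK3 and KLK2 were listed at 0 throughout. Of 10 markers of immune, stromal and endothelial cells, 9 were under 1 FPKM in every column. PTPRC and CD3E were listed at 0, and the exception, CD68, was at 37.1, 81.5 and 38.4 FPKM. The part of CD68, or of the epithelial markers, in the differences below was not tested.

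G2/M and spindle genes were lower in the column labelled CD24 KO than in Scr and close to Scr in the column labelled RCC2 KO. The FPKM of the compared members summed to 3609 in Scr, 2243 in the column labelled CD24 KO and 3769 in the column labelled RCC2 KO, which was 0.800%, 0.577% and 0.843% of each column's own sum. Against Scr, 56 of 57 members were lower in the column labelled CD24 KO, with a median log2 difference of -0.70 and a range from -1.27 to 0.07. Over all 12822 genes compared the median was -0.03, and 52.9% were lower by any amount. The difference reached 2-fold in 13 members, all lower (22.8% of members, against 3.03% of all genes), and no member was 2-fold higher (2.67% of all genes). At 1.5-fold, 35 members were lower, or 61.4% of members against 11.6% of all genes. The 13 members past 2-fold were CCNA2, CCNB1, PLK1, BUB1B, MAD2L1, CDC20, UBE2C, SPC24, CENPM, KIF23, GTSE1, MKI67 and MYBL2.

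**Figure D1:**
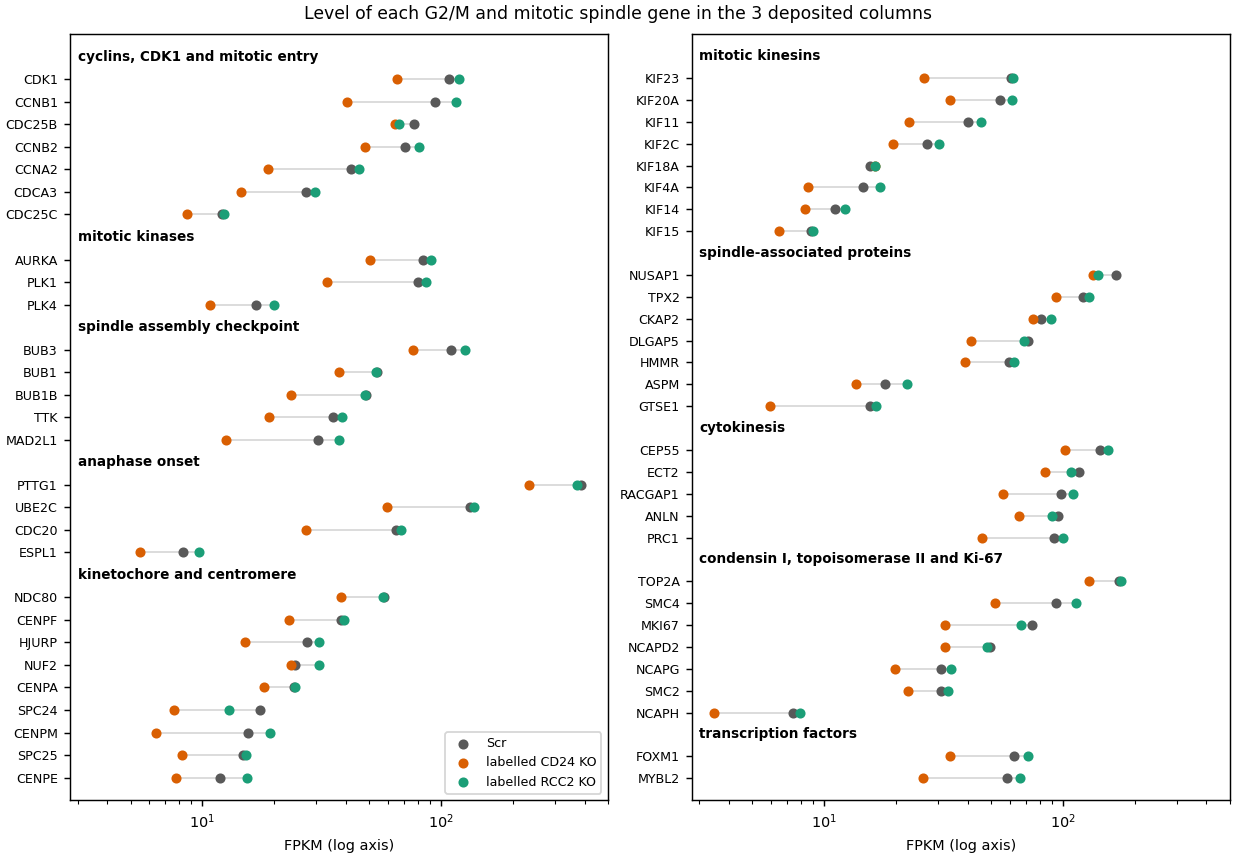
Level of each of the 57 members compared, in FPKM on a log axis, in the Scr (grey), CD24 KO (orange) and RCC2 KO (green) columns as labelled, grouped by role, with 1 deposited value per point and no error available. The orange point is the lowest of the 3 for nearly every gene, while grey and green lie close together, and KIF18A shows the 3 points at 15.5 to 16.3 FPKM.

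In the column labelled RCC2 KO the same genes had a median log2 difference from Scr of 0.11, within a range from -0.40 to 0.35. Of the 57 members, 45 were above Scr and 12 below, or 78.9% above, against 49.3% of all genes compared. No member was 2-fold higher or lower than Scr, where 0.406% and 0.796% of all genes were, and none reached 1.5-fold. Between the 2 knockout columns the median was 0.75, with 56 of 57 members higher in the column labelled RCC2 KO. A 2-fold difference was reached by 15 members, all higher (26.3%, against 4.02% of all genes), and by none in the other direction (4.3% of all genes). The order RCC2 KO above Scr above CD24 KO held for 44 of 57 members, or 77.2%, and for 27% of all genes. The 3 comparisons are made from the same 3 columns and are not independent of each other. Among the 7487 genes whose Scr level lay between that of the lowest and the highest member, the median difference between the column labelled CD24 KO and Scr was -0.14, and 4.05% were 2-fold lower.

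**Figure D2:**
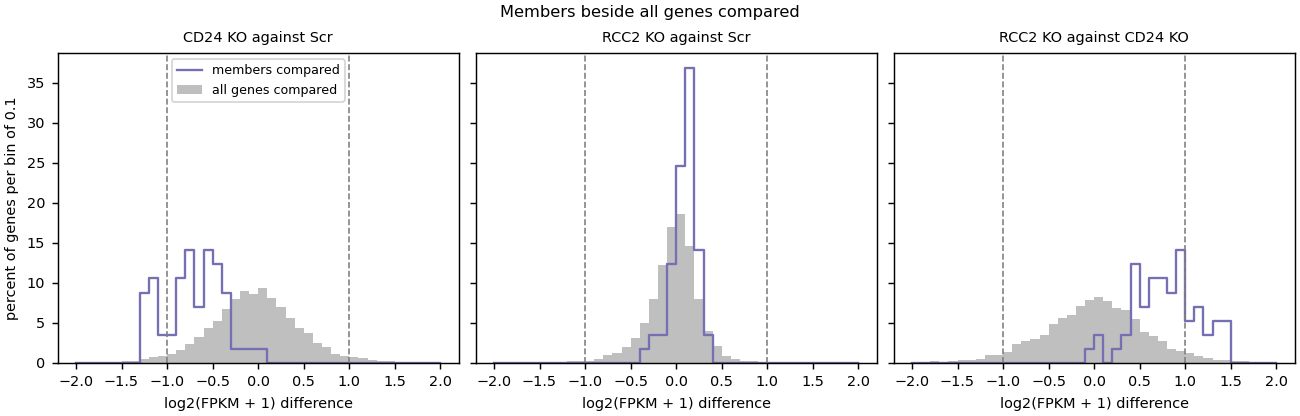
Percent of the 57 members (violet line) and of the 12822 genes compared (grey) in bins of 0.1 of the log2(FPKM + 1) difference, for the 3 comparisons as labelled, with dashed lines at 2-fold. The members sit left of 0 for CD24 KO against Scr (median -0.70), just right of 0 for RCC2 KO against Scr (median 0.11), and right of 0 for RCC2 KO against CD24 KO (median 0.75), and 74, 40 and 82 of all genes lie outside the plotted range.

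Promoter sequence was not used to choose the members. It is shown for members past 2-fold that carry both motifs described below, to show how these motifs lie, and for the members nearest to or above Scr. RefSeq promoters, from 250 bases before to 50 bases after each start on GRCh38.p14, were found for 50 of 58 members, which had 63 promoters. AURKA, UBE2C, RACGAP1, TTK, CENPM, TPX2, BUB3 and FOXM1 had none in the table used. The CHR was searched as TTTGAA or TTCGAA and the CCAAT box as CCAAT, on both strands. The 100 bases before the start are printed 5′ to 3′ on the strand of the gene, with every CHR and CCAAT word of either strand in capitals. Of the 42 members with 1 promoter, 12 had both words in this stretch. Among the 11 of the 42 that were 2-fold lower in the column labelled CD24 KO, 5 had both and are shown because of it, so the sequences do not compare members that were lower with those that were not. These 5 are GTSE1 (chr22:46296770-46296869, plus strand), PLK1 (chr16:23678789-23678888, plus), CDC20 (chr1:43358881-43358980, plus), MKI67 (chr10:128126424-128126523, minus) and KIF23 (chr15:69414249-69414348, plus). The 3 members nearest to or above Scr, shown whatever their motifs, are KIF18A (chr11:28108157-28108256, minus), NUF2 (chr1:163321854-163321953, plus) and CKAP2 (chr13:52455888-52455987, plus).
GTSE1: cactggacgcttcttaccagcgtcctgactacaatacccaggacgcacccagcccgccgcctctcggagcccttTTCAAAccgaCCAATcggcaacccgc
PLK1: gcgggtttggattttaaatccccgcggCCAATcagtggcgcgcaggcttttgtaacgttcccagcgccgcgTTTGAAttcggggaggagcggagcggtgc
CDC20: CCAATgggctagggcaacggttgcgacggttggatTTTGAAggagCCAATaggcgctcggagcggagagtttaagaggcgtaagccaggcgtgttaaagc
MKI67: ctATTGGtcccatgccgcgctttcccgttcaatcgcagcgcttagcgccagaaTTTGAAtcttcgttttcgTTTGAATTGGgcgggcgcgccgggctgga
KIF23: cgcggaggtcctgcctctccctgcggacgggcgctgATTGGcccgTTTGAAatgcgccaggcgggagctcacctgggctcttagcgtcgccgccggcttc
KIF18A: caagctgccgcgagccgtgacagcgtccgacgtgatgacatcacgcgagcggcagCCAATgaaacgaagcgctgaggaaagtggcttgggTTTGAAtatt
NUF2: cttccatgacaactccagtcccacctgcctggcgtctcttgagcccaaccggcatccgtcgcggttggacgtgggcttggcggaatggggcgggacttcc
CKAP2: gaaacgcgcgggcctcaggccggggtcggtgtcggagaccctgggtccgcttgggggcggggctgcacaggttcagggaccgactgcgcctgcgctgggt
In GTSE1, TTCAAA (the CHR word TTTGAA read on the other strand) begins 26 bases before the start and CCAAT 16 bases before it. PLK1 has TTTGAA 29 bases and CCAAT 73 bases before its start, and CDC20 has TTTGAA 65 bases before its start between 2 CCAAT words. In MKI67 the second TTTGAA overlaps an ATTGG. KIF18A, the member that was not lower, has both words as well, while the stretches of NUF2 and CKAP2 have neither. NUF2 nevertheless has a CHR word between 100 bases before and 50 bases after its start, not wholly within the stretch printed.

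The CHR words were in 43 of the 63 member promoters (68.3%), in 16.4% of all 35116 promoters of the reference and in 11.3% of the 14112 promoters of other genes compared. A CCAAT box was in 66.7% of member promoters, 34.6% of all promoters and 34.2% of those of other genes compared. Both were present in 52.4%, 6.38% and 4.43% of these promoters. Words of E2F sites (TTTGGCGC, TTTCCCGC, TTTGCCGC or TTTCGCGC, either strand) were in 5 member promoters (7.94%), in 3.31% of all promoters and in 4.95% of those of other genes compared. In the 150 bases around the start, from 100 before to 50 after, CHR words were in 58.7% of member promoters and 7.37% of all.

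Among the members themselves, differences were set beside the words without a test. The 30 members compared that had both words in the same promoter had a median difference of -0.66 between the column labelled CD24 KO and Scr, and the 19 with a promoter but without that pair had a median of -0.61. The 39 members with a CHR word had a median of -0.61, with 7 of them 2-fold lower, and the 10 without one had a median of -0.82, with 4 of them 2-fold lower. The 6 members with CCAAT alone ranged from -1.21 to -0.67. Among other genes compared, 587 had both words in the same promoter and a median of -0.09, with 4.77% 2-fold lower, and 9089 did not and had a median of -0.05, with 2.65% 2-fold lower. A match of these letters is a description and not a site of binding.

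**Figure D3:**
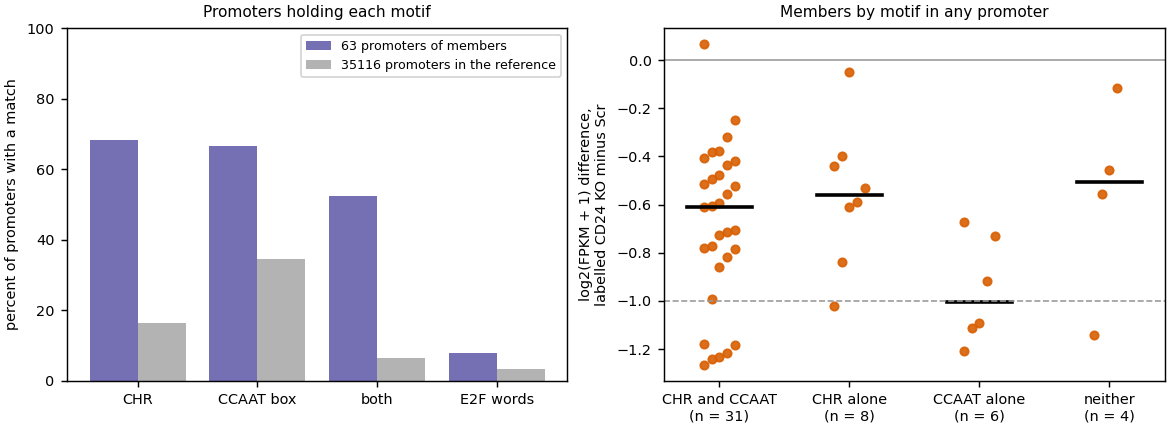
Left, percent of 63 member promoters (violet) and of 35116 reference promoters (grey) that hold each motif within 300 bases. Right, log2(FPKM + 1) difference between the column labelled CD24 KO and Scr for the 49 members compared that have a promoter, by the words found in any of their promoters, with a bar at the median (-0.61 for CHR and CCAAT, -0.56 for CHR alone, -1.004 for CCAAT alone, -0.51 for neither); the groups overlap.

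The cyclins and the kinase that drive mitotic entry were lower in the column labelled CD24 KO, with 7 of 7 genes of this group below Scr and a median of -0.73. CCNB1, which encodes cyclin B1, the main activator of CDK1 in mitosis, was at 94.5, 40.4 and 115 FPKM. Its differences from Scr were -1.21 and 0.28. CCNA2, the cyclin A of S phase and G2, was at 42.0, 18.9 and 45.5 FPKM, with differences of -1.11 and 0.11. CCNB1 and CCNA2 were the 2 genes of the group that passed 2-fold, while their partner CDK1 was at 108, 65.1 and 119.5 FPKM, a difference of -0.73 in the column labelled CD24 KO. CCNB2, a second cyclin B, was at 70.9, 47.9 and 81.3 FPKM. CDCA3, which promotes degradation of the CDK1 inhibitor WEE1, was at 27.2, 14.6 and 29.6 FPKM. The CDK1-activating phosphatases among the members, CDC25C and CDC25B, differed less than the cyclins of the group. This did not hold for CDC25A, a phosphatase outside the members, which differed by -1.79 in the column labelled CD24 KO. CDC25C was at 12.1, 8.65 and 12.3 FPKM, with a difference of -0.44 in the column labelled CD24 KO. CDC25B, the smallest difference of the group, was at 76.8, 64.5 and 66.7 FPKM, with differences of -0.25 and -0.20, so that both knockout columns were below Scr.

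Of the 3 mitotic kinases, PLK1, which acts in mitotic entry, spindle assembly and cytokinesis, was at 79.9, 33.2 and 86.3 FPKM. Its difference from Scr was -1.24 in the column labelled CD24 KO, and the column labelled RCC2 KO exceeded that column by 1.35. AURKA, a kinase of centrosomes and spindle poles, was at 84.0, 50.6 and 90.8 FPKM, a difference of -0.72. PLK4, which starts centriole duplication, was at 16.9, 10.7 and 20.0 FPKM, a difference of -0.61. The 3 kinases stood in the same order of columns, and PLK1 alone passed 2-fold.

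Genes of the spindle assembly checkpoint had a median difference of -0.86 in the column labelled CD24 KO and 0.13 in the column labelled RCC2 KO. MAD2L1, the checkpoint protein that binds and inhibits CDC20, was at 30.5, 12.6 and 37.3 FPKM. Its difference between the 2 knockout columns, 1.498, was the largest among the members. BUB1B, which encodes the checkpoint protein BUBR1, was at 48.7, 23.5 and 48.3 FPKM and stood just past 2-fold (-1.02). The position of BUB1B overlaps that of the readthrough BUB1B-PAK6, which was at 2.14, 2.64 and 2.16 FPKM. TTK, the kinase that starts the checkpoint signal, was at 35.2, 19.0 and 38.5 FPKM, a difference of -0.86. BUB3, which brings the BUB proteins to kinetochores, was at 110.5, 76.1 and 126 FPKM. The smallest difference was that of the kinase BUB1, at 53.9, 37.4 and 53.3 FPKM, or -0.52. All 5 genes were thus below Scr in the column labelled CD24 KO, and 2 of them passed 2-fold.

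The genes of anaphase onset had a median difference of -0.94 in the column labelled CD24 KO. CDC20, the activator of the anaphase-promoting complex that the checkpoint holds back, was at 65.0, 27.1 and 68.0 FPKM, with differences from Scr of -1.23 and 0.06. UBE2C, the ubiquitin-conjugating enzyme of the same complex, was at 133, 59.2 and 137 FPKM, with differences of -1.15 and 0.05. Both passed 2-fold in the column labelled CD24 KO. PTTG1, which encodes securin and had the highest level of all members, was at 387, 233 and 373 FPKM, a difference of -0.73. ESPL1, which encodes separase, the protease that securin inhibits, was at 8.29, 5.47 and 9.69 FPKM, a difference of -0.52.

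Kinetochore and centromere genes spanned from one of the largest to one of the smallest differences. CENPM, a centromere protein, was at 15.6, 6.39 and 19.2 FPKM, with differences from Scr of -1.17 and 0.29. SPC24 was at 17.4, 7.64 and 13.0 FPKM and was lower than Scr in both knockout columns, with differences of -1.09 and -0.40, the latter being the lowest value of any member in the column labelled RCC2 KO. The 4 subunits of the NDC80 complex, which links kinetochores to microtubules, differed among themselves. SPC25 was at 14.8, 8.20 and 15.3 FPKM (-0.78) and NDC80 at 57.8, 38.1 and 57.3 FPKM (-0.59). NUF2 was at 24.5, 23.6 and 30.9 FPKM (-0.05), the smallest difference among members below Scr. The centromeric histone variant gene CENPA was at 24.3, 18.05 and 24.5 FPKM (-0.41), and HJURP, the chaperone that deposits it, was at 27.5, 15.2 and 30.9 FPKM (-0.82). CENPF, a large kinetochore protein of G2 and M, was at 38.3, 23.1 and 39.2 FPKM (-0.70). CENPE, a kinetochore motor, was at 11.9, 7.79 and 15.4 FPKM, and its value of 0.35 in the column labelled RCC2 KO was the highest of any member there. All 9 genes were below Scr in the column labelled CD24 KO, and 2 passed 2-fold.

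Mitotic kinesins, the motors of the spindle, had a median difference of -0.56 in the column labelled CD24 KO over the 8 that were compared. KIF23, the motor subunit of centralspindlin, was at 60.8, 26.3 and 61.6 FPKM and was the only kinesin that passed 2-fold (-1.18). KIF11, which pushes spindle poles apart, was at 39.9, 22.7 and 45.5 FPKM (-0.79). KIF18A, which dampens chromosome movements at the metaphase plate, was the only member above Scr in the column labelled CD24 KO, at 15.5, 16.3 and 16.3 FPKM, with differences from Scr of 0.07 and 0.06. The kinesins KIF4A (14.6, 8.51 and 17.1 FPKM) and KIF20A (54.5, 33.8 and 61.4 FPKM), both motors of the spindle midzone, differed by -0.71 and -0.67. KIF2C, a microtubule depolymerase, was at 26.9, 19.3 and 30.3 FPKM (-0.46). KIF15, which backs up KIF11, was at 8.82, 6.46 and 8.94 FPKM (-0.40), and KIF14, a motor of cytokinesis, was at 11.1, 8.28 and 12.2 FPKM (-0.38). Every kinesin compared was above Scr in the column labelled RCC2 KO, by 0.02 to 0.21.

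KIFC1, which encodes a minus-end-directed motor that clusters centrosomes, was listed at 0.0615, 0.0565 and 0.0360 FPKM and was not compared. Its position on chromosome 6 lies in a stretch in which 25 of the 30 genes listed within 250 kb on each side were under 1 FPKM in every column, and 19 were listed at 0 in all of them. RPS18, a ribosomal protein gene in this stretch, was also listed at 0, whereas the 79 other RPS and RPL genes had a median of 181 FPKM in Scr, 3 of them being listed at 0. The low value of KIFC1 is therefore given as listed and is not read as absence of its RNA, and its cause was not tested.

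Genes of other spindle-associated proteins had the smallest median difference of the groups in the column labelled CD24 KO (-0.38), although they held the largest single one. GTSE1, a microtubule-binding protein of G2 and M, was at 15.6, 5.90 and 16.5 FPKM, a difference from Scr of -1.27. DLGAP5, which stabilises kinetochore fibres, was at 71.2, 41.2 and 68.5 FPKM (-0.77). HMMR, a spindle pole and hyaluronan-binding protein, was at 59.3, 39.0 and 62.7 FPKM (-0.59). The remaining genes of the group lay closer to Scr. ASPM, a spindle pole protein, was at 17.96, 13.5 and 22.3 FPKM (-0.38), and TPX2, the activator of AURKA, was at 121, 93.6 and 129 FPKM (-0.37). NUSAP1, which bundles microtubules around chromosomes, was at 168, 134 and 141 FPKM and below Scr in both knockout columns (-0.32 and -0.25). CKAP2, another microtubule-associated protein, was at 81.3, 75.0 and 89.4 FPKM (-0.11).

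None of the 5 cytokinesis genes passed 2-fold on the log2(FPKM + 1) scale, with a median of -0.53 in the column labelled CD24 KO. PRC1, which bundles antiparallel microtubules of the midzone, was at 92.2, 45.9 and 101 FPKM and lay just outside 2-fold (-0.99). Without the added 1, its FPKM ratio to Scr was 0.498, just past 2-fold. RACGAP1, the partner of KIF23 in centralspindlin, was at 98.7, 56.1 and 111 FPKM (-0.80). ECT2, the exchange factor that activates RHOA at the cleavage plane, was at 117, 84.1 and 108 FPKM (-0.48). ANLN, a scaffold of the contractile ring, was at 95.1, 65.5 and 90.4 FPKM (-0.53), and CEP55, an abscission factor, was at 144, 102 and 155 FPKM (-0.49). ECT2 and ANLN were below Scr in the column labelled RCC2 KO as well, with differences of -0.11 and -0.07.

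Of the genes for mitotic chromosome structure, MKI67, which encodes the surface protein of mitotic chromosomes Ki-67, was at 74.3, 32.2 and 66.9 FPKM, with differences from Scr of -1.18 and -0.15. It was the 1 gene of 7 in this group past 2-fold on the log2(FPKM + 1) scale. The condensin I subunits differed unequally, with NCAPH at 7.43, 3.46 and 7.88 FPKM (-0.92), NCAPG at 30.9, 19.9 and 34.0 FPKM (-0.61) and NCAPD2 at 49.5, 32.1 and 48.3 FPKM (-0.61). The ATPases shared by both condensins were at 93.5, 51.8 and 114 FPKM for SMC4 (-0.84) and 30.7, 22.4 and 33.1 FPKM for SMC2 (-0.44). TOP2A, the topoisomerase that untangles sister chromatids, was at 172, 129 and 176 FPKM (-0.42), the smallest difference of the group. The group's medians were -0.61 in the column labelled CD24 KO and 0.08 in the column labelled RCC2 KO.

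Both transcription factors of this programme were below Scr in the column labelled CD24 KO. MYBL2, which encodes B-MYB, was at 58.4, 25.9 and 66.3 FPKM, with differences from Scr of -1.14 and 0.18. FOXM1 was at 62.2, 33.7 and 71.5 FPKM, with differences of -0.87 and 0.20. FOXM1 was past 2-fold between the 2 knockout columns (1.07), as were PRC1 and SMC4 (both 1.12), but none of the 3 was with quantile normalization (0.90, 0.94 and 0.95), nor FOXM1 with a pseudocount of 5 (0.99). SPC24 was not (0.69).

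**Figure D4:**
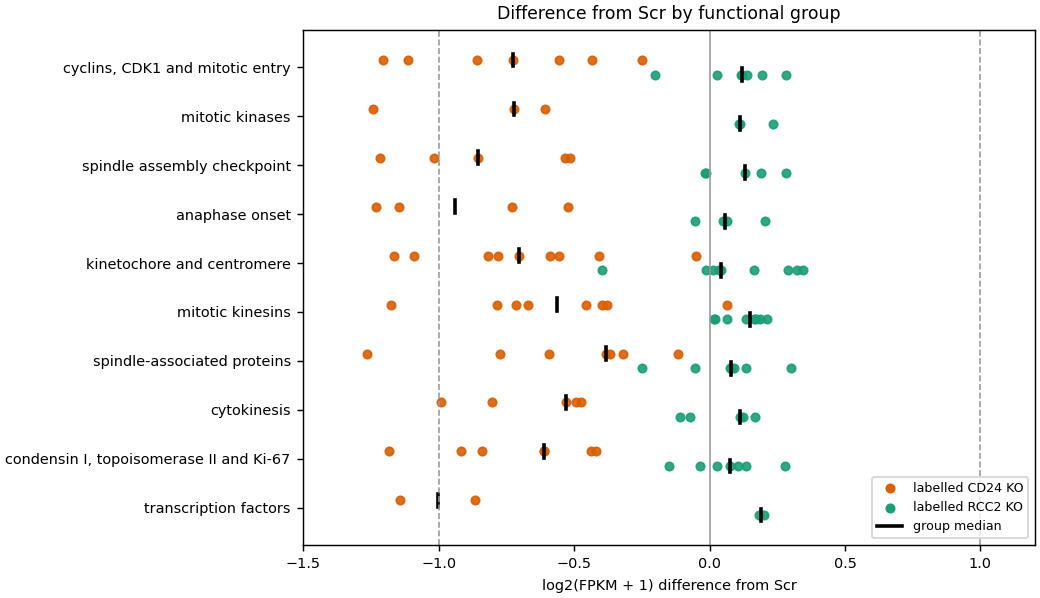
Log2(FPKM + 1) difference from Scr for the members compared in each of the 10 functional groups, in the columns labelled CD24 KO (orange) and RCC2 KO (green), 1 point per gene, with the group median as a black bar and dashed lines at 2-fold. In each group the orange median lies left of 0, between -1.005 and -0.38, and the green median lies between 0.04 and 0.19.

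The spread of the differences among members was smaller than among all genes. The SD across the 57 members was 0.33 in the column labelled CD24 KO and 0.14 in the column labelled RCC2 KO, and across all genes compared it was 0.60 and 0.42. The ranges of level were unlike, since the lowest member was at 7.43 FPKM in Scr and genes compared needed only 1 FPKM in any column. No SD was calculated for genes within the members' range. Level in Scr and difference in the column labelled CD24 KO had a Spearman coefficient of -0.05 across the 57 members, which share the same columns and are not independent. The members lie on 21 chromosomes. Of the 58, 17 share their table position with another listed gene, and in 6 this neighbour was at 5 FPKM or more in Scr, where reads may have been divided between the genes. CCNA2 shares its position with EXOSC9 (33.6, 19.2 and 38.5 FPKM), FOXM1 with RHNO1 (39.7, 32.3 and 38.9 FPKM) and SMC4 with IFT80 (17.8, 28.4 and 15.3 FPKM). KIF20A shares with CDC23 (27.6, 23.6 and 28.9 FPKM), CDC25C with FAM53C (23.3, 25.0 and 26.5 FPKM) and NCAPG with LCORL (7.70, 7.90 and 6.07 FPKM). EXOSC9 was lower together with CCNA2, while IFT80 was higher where SMC4 was lower.

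Other genes of mitosis gave smaller differences than the members in most lists, which like the members were compiled with earlier results of these data known. The 4 genes of the chromosomal passenger complex, which corrects kinetochore attachments, were lower in the column labelled CD24 KO with little spread. AURKB, its kinase, was at 60.7, 29.2 and 66.7 FPKM (-1.03), INCENP at 25.1, 12.1 and 21.3 FPKM (-0.99), BIRC5 at 59.9, 29.9 and 72.7 FPKM (-0.98) and CDCA8 at 34.2, 17.0 and 40.8 FPKM (-0.97). Another 27 kinetochore and centromere genes had a median of -0.50, with 23 lower and 3 of them 2-fold lower (11.1%). Over all genes compared, 52.9% were lower in the column labelled CD24 KO and 3.03% were 2-fold lower. ZWINT, which recruits the checkpoint dynein adaptor, was at 77.8, 25.4 and 87.3 FPKM (-1.58), and CENPW was at 8.09, 2.89 and 9.40 FPKM (-1.22). The 3 subunits particular to condensin II were NCAPD3 at 24.3, 10.3 and 22.6 FPKM (-1.16), NCAPG2 at 36.6, 22.0 and 37.0 FPKM (-0.71) and NCAPH2 at 8.98, 5.28 and 8.18 FPKM (-0.67).

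Further from the members, 34 other spindle motors and microtubule proteins had a median of -0.30, with 24 lower and 1 past 2-fold. That share, 2.94%, was near the 3.03% of all genes. The gene was the depolymerase KIF18B at 16.2, 6.64 and 18.1 FPKM (-1.17). KNSTRN, a spindle and kinetochore protein, was at 61.8, 32.1 and 65.5 FPKM (-0.92). The 17 genes of the anaphase-promoting complex had a median of -0.34, and none passed 2-fold, with ANAPC2 at 6.98, 3.08 and 6.44 FPKM (-0.97) and ANAPC15 at 46.5, 23.6 and 49.6 FPKM (-0.95). Cohesin and its regulators, 15 genes, had a median of -0.10. In that list CDCA5, which encodes sororin, was at 37.0, 13.6 and 42.5 FPKM (-1.38) and the cohesin subunit STAG1 at 17.5, 7.19 and 16.4 FPKM (-1.18). The 10 other regulators of mitotic entry had a median of -0.17, with CDC25A, a CDK-activating phosphatase, at 9.77, 2.11 and 9.58 FPKM (-1.79) and PKMYT1, a CDK1-inhibiting kinase, at 7.92, 3.59 and 9.45 FPKM (-0.96). The 12 subunits of DREAM and MuvB had a median of -0.24, with 7 lower and 5 higher, and the larger differences were those of E2F4 at 55.2, 25.8 and 72.3 FPKM (-1.07) and its partner TFDP1 at 68.0, 36.1 and 73.4 FPKM (-0.89).

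Genes of DNA replication, a process of S phase, had a median further below Scr than the members in the column labelled CD24 KO. All 32 were below Scr, with a median of -0.93 against -0.70 for the members, and 14 were 2-fold lower (43.75%, against 3.03% of all genes). RRM2, a subunit of ribonucleotide reductase, was at 138, 40.1 and 141 FPKM (-1.76), and MCM3, a subunit of the replicative helicase, was at 109.6, 39.6 and 114.5 FPKM (-1.45). Among 7 CDK inhibitors the median was 0.25, and 2 were 2-fold higher (28.6%, against 2.67% of all genes). These were CDKN2B at 5.18, 13.8 and 5.03 FPKM (1.26) and CDKN1C at 0.941, 2.99 and 0.244 FPKM (1.04). CDKN1C met the minimum of 1 FPKM only through the column labelled CD24 KO and lay near that minimum. It could therefore hardly be counted other than as higher, and the count and median above include it.

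**Figure D5:**
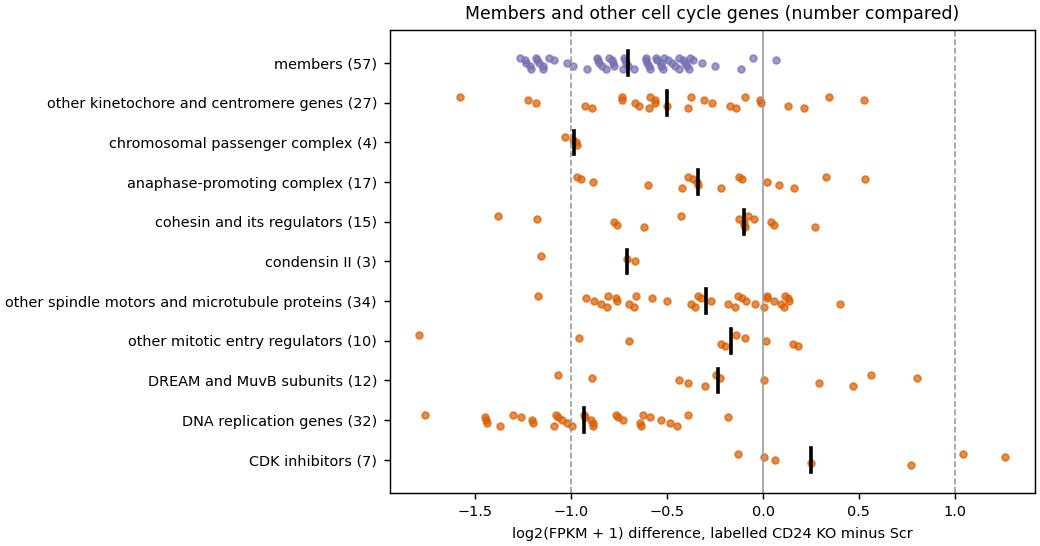
Log2(FPKM + 1) difference between the column labelled CD24 KO and Scr for the 57 members (violet) and the genes of 10 other lists (orange), 1 point per gene, with the median as a black bar, the number compared in brackets and dashed lines at 2-fold. DNA replication genes (median -0.93) and the passenger complex (median -0.98) lie left of the members (median -0.70), and CDK inhibitors (median 0.25) lie right of 0.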

How the data were processed

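Total RNA of DU145 cells was sequenced in 6 libraries, 2 for each of the conditions Scr, CD24 KO and RCC2 KO. From these the authors deposited a table of FPKM values with 1 column per condition, used as their pooled value for that condition, and the name of the RCC2 KO column can stand for 1 library or both. The submitters' processing notes name HISAT, StringTie, Cufflinks and GATK, and their versions and settings, and the genome build, are not given in the sources used here. Only 9 of the 58 members overlapped their GRCh38 position in GENCODE 29, so table coordinates were read as hg19 and not mixed with GRCh38. The labels name an RNA kit for total RNA and the methods a stranded mRNA kit.

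Comparisons were made on log2(FPKM + 1) for genes that reached 1 FPKM in any column, and a 2-fold minimum took the place of a test. The limma fit planned for separate libraries, with its replicate block, was not run. The members and lists were chosen with earlier results of these data known. Members were named throughout, and of other lists the 2 largest differences, or the whole list where it held 5 genes or fewer. Alternatives were pseudocounts of 0.1 and 5, other filters, quantile normalization, median centring, a 1.5-fold minimum and genes matched to the members' range of level. Promoters were from RefSeq (GRCh38.p14). Calculations used pandas 2.3.3, matplotlib 3.10.9 and SciPy 1.17.1 under Python 3.11.15 with NumPy 2.4.6, and the steps were tested on simulated data.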

Additional observations from a re-analysis of the deposited data

How the results depend on the processing

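The direction of the members' median in each comparison, and of each member past 2-fold, was kept under the alternatives run, which did not include the smaller differences of single members. The number of members 2-fold lower in the column labelled CD24 KO was 13, became 8 with a pseudocount of 5 and 35 with the 1.5-fold minimum, and lay between 9 and 15 otherwise. By FPKM ratio to Scr without a pseudocount, NCAPH (0.466) and PRC1 (0.498) were also past 2-fold lower in that column. Between the knockout columns, 15 members were 2-fold higher in the column labelled RCC2 KO, 40 with the 1.5-fold minimum, 20 with a pseudocount of 0.1, 11 with a pseudocount of 5, 10 with quantile normalization, 14 with median centring and 8 when members sharing a position were left out, an alternative chosen after seeing the data that removes members by construction. Medians lay between -0.54 and -0.73 for CD24 KO against Scr, 0.10 and 0.12 for RCC2 KO against Scr, and 0.67 and 0.82 between the knockouts. Within the members' range of Scr level, 0.0935% of genes were 2-fold higher in the column labelled RCC2 KO, against 0.406% of all genes. With a pseudocount of 5, CCNA2, BUB1B, SPC24, CENPM and GTSE1 were no longer 2-fold lower in the column labelled CD24 KO, and with quantile normalization CCNA2, BUB1B and UBE2C were not. Median centring took BUB1B to -0.99 there. Between the knockout columns, BUB1B, GTSE1, MKI67 and FOXM1 fell under 2-fold with a pseudocount of 5, BUB1B, UBE2C, PRC1, SMC4, MKI67 and FOXM1 with quantile normalization, and BUB1B with median centring. No paired analysis was possible because the table holds 1 column per condition and the columns carry no replicate number, and leaving out replicates was not run for the same reason. Depth is unknown, so the counting error of low genes cannot be given.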
